A study of Rattus norvegicus with 6 samples.

Results

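Osteopontin, the product of Spp1, was followed as a single row of the count table, ENSRNOG00000043451, which is 1 of 32883 Ensembl gene rows. The rule that chose the row names the gene and uses no measured value, although it was set with earlier results of these data known. Its pairing with Spp1 was taken as given, because the reference table at hand pairs 0 of the identifiers with a symbol. The row passed the filter on low counts together with 12043 others. RNA came from cultured rat vascular smooth muscle cells in 2 groups of 3 samples each. The sg-MIAT group carried a CRISPR-dCas9 system with a guide meant to raise MIAT, a long non-coding RNA, and its genotype is labelled MIAT overexpression. The sg-U6 group received that system with a guide serving as negative control and is labelled WT, so both groups share the dCas9 treatment. No strain, age, passage, vessel of origin or clone is named beyond "vessel", and nothing says whether samples 1 to 3 of a group are separate cultures or animals. The p-values therefore set the group difference against the spread among these 6 samples and no more, and that spread may be technical.

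Osteopontin is a secreted, phosphorylated glycoprotein of the SIBLING family that binds αv integrins through an RGD motif and also binds CD44. Contractile smooth muscle makes little of it. Cells that leave the contractile state, in culture, in injured arteries and in vein grafts, make more, and the gene is widely used as a marker of this synthetic state. Macrophages and mineralising cells are other well known sources. In bulk RNA a lower share of osteopontin-making cells and less osteopontin RNA per cell cannot be told apart.

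The RefSeq promoter of Spp1 is given to identify the gene and because its RNA level is the measurement that follows. It is the 250 bases before the annotated transcript start, chr14:5619805-5620054, minus strand, rat build GRCr8, which is not the build named in the submitters' processing notes. Capitals mark letters that match 1 of 4 searched patterns.
Spp1 promoter: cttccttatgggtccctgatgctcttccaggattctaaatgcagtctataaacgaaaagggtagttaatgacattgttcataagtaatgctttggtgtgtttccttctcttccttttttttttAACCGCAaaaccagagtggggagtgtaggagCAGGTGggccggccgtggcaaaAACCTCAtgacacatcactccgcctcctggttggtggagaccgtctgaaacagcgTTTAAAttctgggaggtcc

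The RUNX core was searched on both strands as AACCNCA, with any base allowed at N. This loose pattern occurs as AACCGCA at 127 to 121 and as AACCTCA at 74 to 68 bases before the start. RUNX2 is the bone transcription factor known to act on osteopontin. At least 1 such match is present in 12.9% of the 33469 rat promoters of this length. An E-box, CANNTG, lies 96 to 91 bases before the start and is present in 65.5% of those promoters. A TTTAAA box lies 19 to 14 bases before the start, and 12.3% of promoters hold one. The AP-1 pattern TGANTCA, present in 6.34% of promoters, has 0 matches in this window. No 2 matches overlap. These are matches of letters, and binding was not measured.

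Spp1 was one of the most heavily read genes in some samples and far less so in others carrying the same guide. The sg-MIAT samples 1, 2 and 3 held 3140, 6135 and 73720 Spp1 counts. The sg-U6 samples 1, 2 and 3 held 12579, 68561 and 60321. Thus 1 sg-MIAT sample was high and 2 were low, whereas 1 sg-U6 sample was low and 2 were high.

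Library totals ran from 13128977 to 18257865 assigned counts, a far narrower range than that of the Spp1 counts. On the deposited CPM scale (counts over the library total, times 1000000), the sg-MIAT samples stood at 239.2, 336.0 and 4534 and the sg-U6 samples at 845.5, 5049 and 3981. After TMM scaling, which sets libraries to a common level over most genes, the values were 268.6, 334.5 and 4396 CPM in sg-MIAT 1, 2 and 3. The corresponding values in sg-U6 1, 2 and 3 were 885.5, 4815 and 3697 CPM. On both CPM scales sg-MIAT 1 was lowest, then sg-MIAT 2, sg-U6 1, sg-U6 3, sg-MIAT 3 and sg-U6 2, whereas by raw count sg-MIAT 3 was above sg-U6 2.

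**Figure D1:**
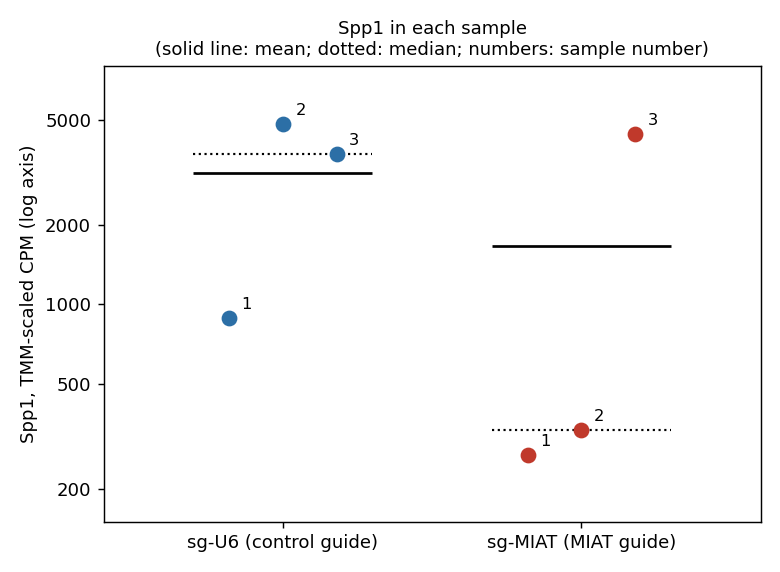
Spp1 level in each of the 6 samples in TMM-scaled CPM on a log axis, by guide, with the sample number beside each point, the group mean as a solid line and the median as a dotted line. The groups overlap, since sg-MIAT 3 at 4396 CPM lies among the sg-U6 samples 2 and 3, and sg-U6 1 at 885.5 CPM lies nearer to the low sg-MIAT samples.

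The 3 highest samples, sg-U6 3, sg-MIAT 3 and sg-U6 2, lay within 1.30-fold of each other. The next sample down, sg-U6 1, was 5.44-fold below sg-U6 2. Samples sg-MIAT 2 and sg-MIAT 1 were 14.4-fold and 17.9-fold below it, and they differed from each other by 1.25-fold. Counting error is small beside these gaps: the exact Poisson 95% interval was 3031 to 3252 counts for the lowest sample and 73189 to 74254 for the highest count. Such intervals cover counting error only, as the reads carry no molecular identifiers.

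As a share of the whole library, Spp1 took 0.505% of the counts in sg-U6 2, 0.453% in sg-MIAT 3 and 0.398% in sg-U6 3. By count, and not per length, it stood 16th, 15th and 20th among the rows of those samples. In sg-U6 1 it took 0.0845% and stood 183rd. In sg-MIAT 2 and sg-MIAT 1 it took 0.0336% and 0.0239% and stood 483rd and 682nd. The gene was therefore well detected in every sample, and none of its values is limited by depth.

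The comparison asked whether cells with the MIAT guide differ in osteopontin RNA from cells with the control guide. The mean was 1666 ± 2364 CPM in sg-MIAT and 3133 ± 2025 CPM in sg-U6 (TMM-scaled, SD, n = 3 each). The difference of means, -1466 CPM, was smaller than the SD of either group. The medians were 334.5 and 3697 CPM, farther apart than the means because the single high sg-MIAT sample weighs on its group's mean and the single low sg-U6 sample on the other.

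Spp1 did not pass the test between guides. Fold changes are of sg-MIAT relative to sg-U6. In edgeR's quasi-likelihood test fitted on all genes, the log2 fold change of Spp1 was -0.91 ± 1.18 (SE), with an unadjusted edgeR p of 0.467 and a Benjamini-Hochberg adjusted p of 0.9995. The 95% interval of that fold change ran from -3.74 to 1.92, that is from 13.4-fold lower to 3.79-fold higher in sg-MIAT. These samples thus leave room for large differences in either direction, and the test does not show that the guides gave equal levels. An exact two-sided permutation test on log2(CPM + 1) gave p = 0.3, where 3 samples against 3 cannot go below 0.1.

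Over the whole table, the edgeR fit called 0 of 12044 genes, 0%, at an adjusted p under 0.05. At an unadjusted p under 0.05 it marked 477 genes, 3.96%, and Spp1 was not among them. DESeq2 called 60 of the 13535 genes it gave an adjusted p, 0.443%, and limma-voom called 0. DESeq2 did not call Spp1 either (log2 fold change -0.91 ± 1.01 SE, DESeq2 adjusted p = 0.99988). The groups did not overlap in CPM for 1089 of 12044 genes, 9.04%, and Spp1 was again not one of these.

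The size of the fitted difference depended on how samples are averaged. The edgeR and DESeq2 models compare arithmetic means, which gave a 1.88-fold lower level in sg-MIAT. The limma-voom fit, which averages on the log scale, put it at -1.80 ± 1.23 (SE), 3.48-fold lower, with an adjusted limma p of 0.99999. The plain difference of mean log2(CPM + 1) was -1.77. A direction was shared by these fits, but none of their intervals excluded 0.

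Leaving out sg-MIAT 3 changed the result most. The 2 remaining sg-MIAT samples then lay below all 3 sg-U6 samples, and the edgeR log2 fold change became -3.37 ± 0.81 (SE), 10.4-fold lower. The unadjusted edgeR p was 0.0075 and the adjusted one 0.548. At that unadjusted threshold this fit marked 693 of 12315 genes, 5.63%. DESeq2 without this sample called Spp1, at a log2 fold change of -3.36 ± 0.68 (SE) and an adjusted DESeq2 p of 0.000172. It called 171 of 13698 genes, 1.25%. This DESeq2 fit was chosen after seeing the data, and it leaves out the only sg-MIAT sample with high Spp1. The exact permutation p without this sample was 0.2. That is the smallest value this test, which doubles the smaller one-sided p, can give for 3 samples against 2. Nothing in the labels sets sg-MIAT 3 apart. By Spp1 level alone, sg-U6 1 likewise lay on the far side of its own group. Whether either sample carries the right label was not tested, as the level of Miat was not analysed here. The edgeR fit without sg-MIAT 3 was made only as 1 of 6 such omissions. Leaving out any other single sample gave edgeR values between -1.35 and -0.41.

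**Figure D2:**
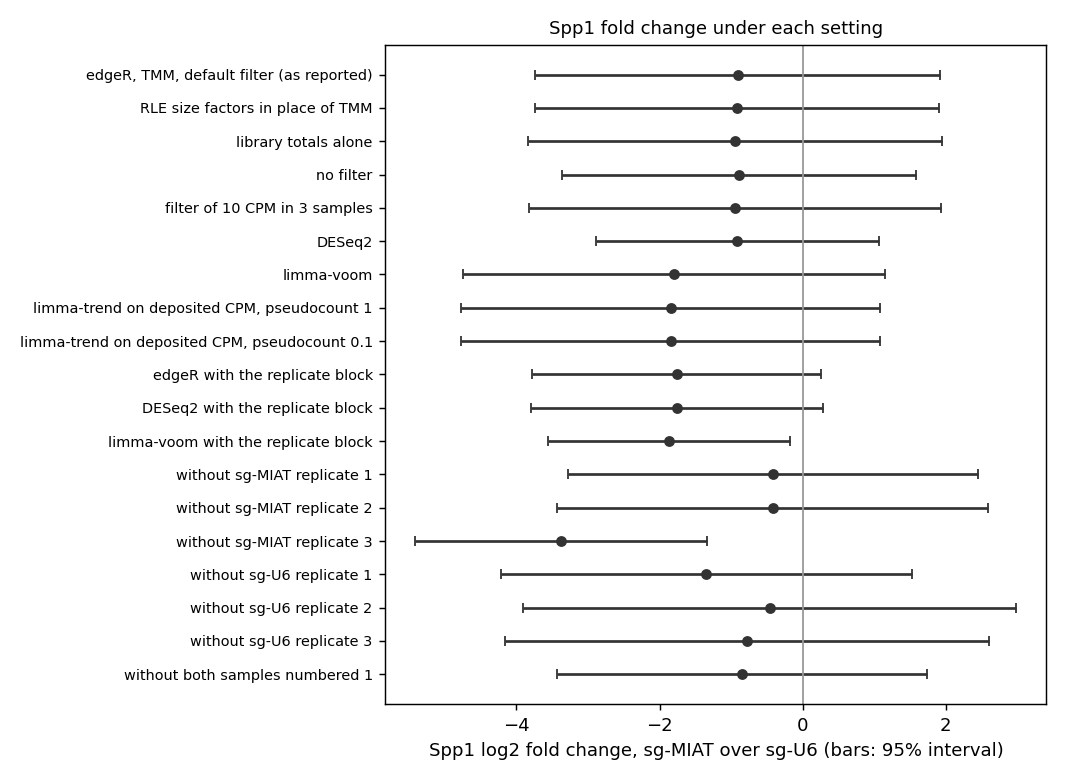
Spp1 log2 fold change, sg-MIAT relative to sg-U6, with its 95% interval under each setting, 1 per line, without the settings added after seeing the data, with a vertical line at 0. All plotted points lie on the side of a lower level in sg-MIAT, and the intervals include 0 except without sg-MIAT replicate 3 and in limma-voom with the replicate block, neither of which passed adjustment over all genes.

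Samples with the same number differed between the guides by unequal amounts. In number 1, Spp1 was 3.30-fold lower in sg-MIAT, at 268.6 against 885.5 CPM. In number 2 it was 14.4-fold lower, at 334.5 against 4815 CPM. In number 3 it was 1.19 times as high, at 4396 against 3697 CPM. The direction was thus shared by 2 of the 3 same-numbered pairs. When the sample number entered as a block, edgeR gave -1.76 ± 0.81 (SE), 3.40-fold lower. The unadjusted edgeR p was 0.0754 and the adjusted one 0.703. With the block, DESeq2 gave 3.38-fold lower and an adjusted DESeq2 p of 0.856, and called 130 of 12906 genes, 1.01%. In limma-voom with the block the unadjusted limma p was 0.0359 and the adjusted p 0.543, where 8.8% of genes had an unadjusted p under 0.05.

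The samples numbered 1 lay apart from the rest on the main axis of variation over the tested genes. On the first principal component, which held 66.1% of the variance, sg-MIAT 1 and sg-U6 1 scored -47.4 and -56.5 and the other 4 samples between 8.28 and 61.2. On the second, which held 17.5%, sg-MIAT 1, 2 and 3 scored -24.8, -29.5 and 3.98. The sg-U6 samples 1, 2 and 3 scored 30.2, 11.5 and 8.65 there. The samples numbered 1 also had the fewest rows with a count, 15101 and 15528 against 15650 to 15794. Spp1 was low in both. It was also low in sg-MIAT 2, which scored 10.4 on the first component and had 15794 rows with a count, the most of all samples. The weight of Spp1 in the first component stood 153rd in size among the 12044 tested genes. Without both samples numbered 1 the edgeR log2 fold change was -0.85 ± 1.03 (SE), and its adjusted edgeR p was 0.790. The part of these sample differences in the Spp1 result was not otherwise tested.

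Spp1 varied between samples of one guide more than nearly all other genes. Its within-group SD of log2(CPM + 1) was 1.84, against a median of 0.32 over the 12044 tested genes, and stood 35th from the top. Among the 1205 genes with the highest mean level it stood 5th, where the median was 0.30. Its range over all 6 samples was 4.16 on the log2 scale, against a median of 0.87, and 65 other tested genes spanned 16-fold or more on that scale. The biological coefficient of variation that edgeR fitted was 0.916 for Spp1 and 0.308 for the median gene.

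The fitted difference between guides was less unusual than this spread. Its size placed Spp1 951st of 12044 genes, in the top 7.90%, while its SE placed it 154th. The median absolute log2 fold change of all tested genes was 0.19 and their median SE was 0.30. The wide interval of the Spp1 comparison came with large differences among samples of the same guide and with at least 3140 counts in every sample.

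**Figure D3:**
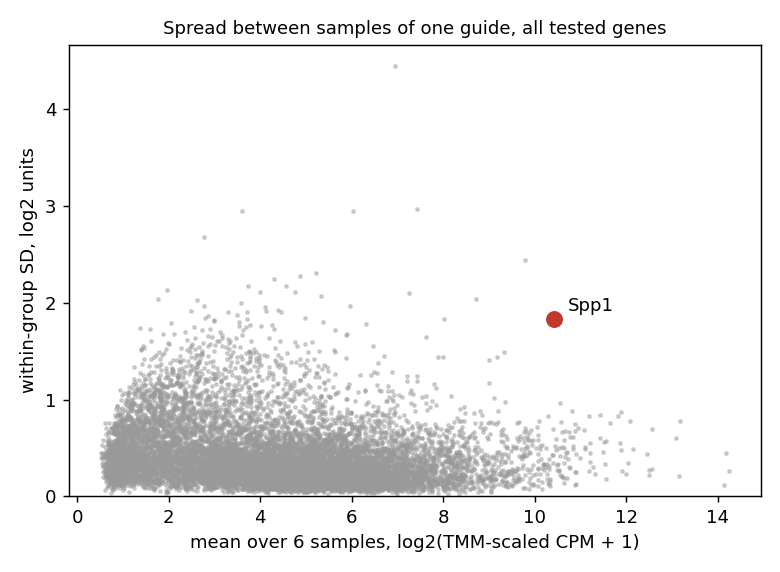
Within-group SD of log2(TMM-scaled CPM + 1) against the mean over the 6 samples, 1 point per tested gene, with Spp1 in red. Spp1 lies at an SD of 1.84, far above genes of like level, with a median SD of 0.30 over the 1205 genes of highest mean level.

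Other rows had a similar profile over the 6 samples. Likeness was measured as Pearson's r of log2(CPM + 1) with Spp1 over the 6 samples and is a description with no test, since Spp1 falls into a low and a high range and r mostly reflects that step. An r of at least 0.9 was reached by 260 of the other 12043 tested genes, 2.16%, and an r of -0.9 or lower by 249 genes, 2.07%. Among the same 12043 genes, the exact order of the 6 samples was shared by 23 and reversed in 25. How many genes would share or reverse an order of 6 samples by chance was not worked out, so these counts show no link with Spp1. Of the genes with r beyond 0.9 in either direction, edgeR called 0 between the guides, as it did among all genes.

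The row most like Spp1 was ENSRNOG00000027300 (r = 0.992, Spearman's rho = 0.943), which had 25.2, 26.3 and 32.8 CPM in sg-MIAT 1, 2 and 3. In the sg-U6 samples it stood at 28.2, 34.0 and 33.6 CPM. The row followed Spp1 closely in shape yet spanned only 1.35-fold. The next, ENSRNOG00000010076 (r = 0.991, rho = 0.943), had 12.7, 17.3 and 63.1 CPM in the sg-MIAT samples. Its sg-U6 values were 23.8, 71.7 and 68.6 CPM, a 5.63-fold span with the same low and high samples as Spp1.

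In the opposite sense, ENSRNOG00000018441 (r = -0.997, rho = -1) had 28.1, 20.8 and 4.29 CPM in sg-MIAT 1, 2 and 3. Its sg-U6 values were 13.7, 4.14 and 4.78 CPM, so the sample order was the exact reverse of that of Spp1. The row ENSRNOG00000027016 (r = -0.996, rho = -0.943) had 21.2, 19.5 and 6.50 CPM in the sg-MIAT samples. It had 13.9, 7.02 and 8.09 CPM in the sg-U6 samples. Each of these 4 rows had an adjusted edgeR p of 0.9995 between the guides.

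**Figure D4:**
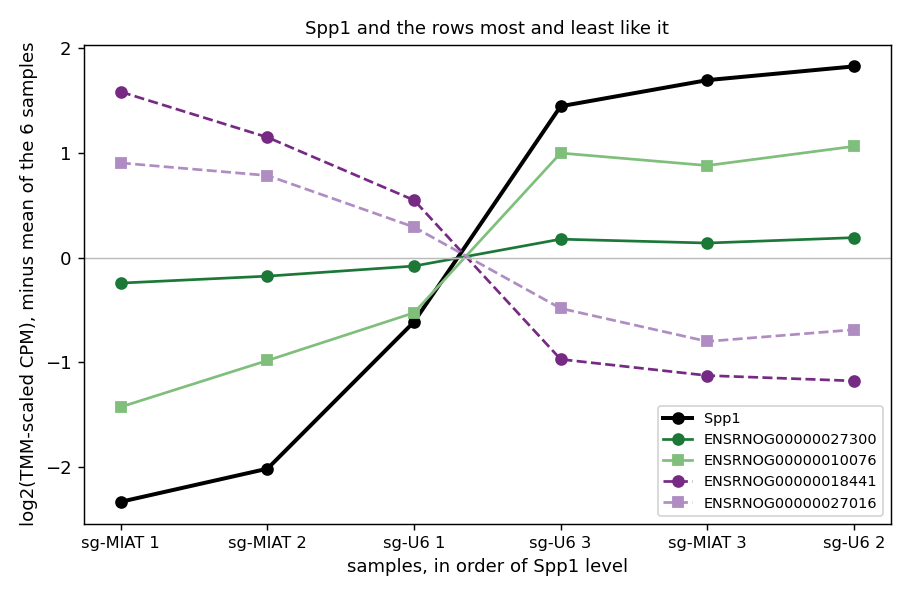
Log2 TMM-scaled CPM of Spp1 and of 4 rows, each minus its mean over the 6 samples, with samples in order of their Spp1 level. The 2 rows most like Spp1 step up and the 2 opposite rows step down between sg-U6 1 and sg-U6 3. Each of these steps is smaller than that of Spp1 between the same samples, from 885.5 to 3697 CPM. Over all 6 samples Spp1 spans 17.9-fold.

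Osteopontin's receptors, its SIBLING relatives, the proteases that cleave it, its regulators and the contractile, synthetic, macrophage, endothelial and fibroblast marker lists were not analysed here, because the identifiers carry no names. For the same reason the labelled cell type was not checked against its markers, and the level of Miat itself was not analysed here.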

How the data were processed

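Polyadenylated RNA of 6 samples was read as paired ends, per the labels' protocols. Raw counts per gene were deposited by the authors, 1 column per sample. The second deposited table, named for FPKM, holds CPM: all but 5 rows equal the count over the library total within a relative tolerance of 0.001, and whole reads (within 0.01) came back for 99.985% of values above 0. The edgeR test on those reads called 0 genes. HISAT2, DESeq2 and Rnor_6.0 are named in the submitters' processing notes, and no source used here gives the counter, annotation release or strand setting.

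The main test was edgeR 4.0.16 (R 4.3.3) on counts: quasi-likelihood F test, TMM, default filter (minimum count 10, minimum total 15), group as the only term, Benjamini-Hochberg adjustment at 0.05. SEs are the fold change over the square root of F. Alternatives used DESeq2 1.42.0, limma 3.58.1, other scalings, filters and pseudocounts, the replicate block, and each sample left out. Fits were also run on simulated counts as a check of the code, and their error rates are not reported here. No 2 libraries were duplicates (chi-square per degree of freedom at least 19.5). The number of unmapped columns was 0.

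The labels number both groups 1 to 3 without stating a pairing. Across genes, deviations from the group means of same-numbered samples correlated at 0.745, 0.117 and 0.335. Differently numbered samples were not correlated in this way, so these values cannot tell whether the numbers mark pairs. For Spp1 the deviations on the log2 scale were -1.45 in sg-MIAT and -1.50 in sg-U6 for number 1. In number 2 they had opposite signs, -1.13 and 0.94, and in number 3 they were 2.58 and 0.56.

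The gene, the 11 gene lists and the rule for named genes were chosen with earlier results of these data known. The rule named Spp1 and the rows with the highest and lowest Pearson r with it, limited to 2 each where rows have no symbol. Of the 32883 identifiers, 0 were paired with a symbol by the reference table (GRCr8, 47357 genes), so the lists could not be used.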

Additional observations from a re-analysis of the deposited data

How the results depend on the processing

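All 25 alternatives kept a lower fitted Spp1 level in sg-MIAT, and 1 of them passed the threshold: DESeq2 without sg-MIAT replicate 3, at a log2 fold change of -3.36. Leaving out 1 sample moved the log2 fold change between -3.37 and -0.41 in edgeR and between -3.36 and -0.41 in DESeq2. Adjusted p-values over 18 of these, all but the ones chosen after seeing the data, ran from 0.543 to 0.99999. The replicate block changed no call of Spp1 in edgeR, DESeq2 or limma-voom, with an edgeR log2 fold change of -1.76. For the table as a whole, 17 alternatives also called 0 genes, among them edgeR with the replicate block. DESeq2 called 60, 130 with the replicate block, and with 1 sample left out 13 (sg-U6 2), 13 (sg-MIAT 1), 16 (sg-MIAT 2), 39 (sg-U6 3), 171 (sg-MIAT 3) or 218 (sg-U6 1). The difference of mean CPM ran from -2831 to -625.0 with 1 sample left out. The exact permutation p ran from 0.2, the smallest that this doubled one-sided p can reach for 3 samples against 2, to 0.6. DESeq2 fits with samples left out and edgeR on recovered reads were chosen after seeing the data. Alternatives for the gene lists were not run. Counting error was small beside the spread between samples of one guide, with 3 samples in each group. The edgeR SE of Spp1 was 1.18, and 0.81 with the replicate block. What limits this comparison was not tested.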
